A study of Mus musculus with 8 samples.

Results

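To describe the tumor cells of each plate with the lower levels of Krt7, Ly6a, Wfdc2 and Car2, 181 epithelial wells of orthotopic colon tumors were examined out of 274 epithelial wells and 3072 wells in all. A well counted as epithelial with at least 2000 cellular transcripts, at least 2 transcripts of Epcam, under 2 of the leukocyte gene Ptprc, at least 10 per 10000 transcripts of Epcam, Krt8, Krt18, Krt19 and Cldn7 together, under 20 per 10000 of the collagen genes Col1a1, Col1a2 and Col3a1, and under 10 per 10000 of the mature colon genes Guca2a and Lypd8. On each plate, epithelial wells were ranked by the summed share of Krt7, Ly6a, Wfdc2 and Car2, and the lower 2 of every 3 were taken. These are called low wells, and the 93 remaining epithelial wells are called high wells. The wells were chosen by their measured expression of these genes, so every difference between low and high wells is given as a description without a test. Only the contrasts between genotypes and between runs, as defined below, were tested.

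The tumors came from engineered mouse colon organoids with loss of Apc, among other changes, which were transplanted orthotopically into the caecum. All hosts carried floxed Zeb1 and received a tamoxifen diet. FibΔZeb1 hosts (4 mice) were positive for a Cre-ERT2 transgene that deletes Zeb1 in fibroblasts, and FibCtrl hosts (4 mice) were negative for it. The labels name the transgene Col1a1Cre-ERT2, whereas the methods of the study name a Col1a2-CreERT2 allele. The deletion concerns the host stroma, so Zeb1 of the transplanted tumor cells was not targeted in either group, and the mice are replicates of the host and not of the tumor line. Each mouse gave 1 plate of 384 wells sorted for fibroblasts, EPCAM-positive and CD45-positive cells, and transcripts were counted at their 3′ ends with unique molecular identifiers (UMIs). Host age was not given in the sources used here.

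Colon tumors with Apc loss run the Wnt pathway without its usual brake. Stabilised β-catenin works with TCF and LEF factors at target genes such as Axin2, Nkd1, Notum, Znrf3 and Rnf43, most of which feed back to restrain the pathway, and Lgr5 marks Wnt-dependent stem cells of the crypt. A second, regenerative or fetal-like state of intestinal epithelium is known by Ly6a (Sca-1), Clu, Anxa genes and other targets of YAP, and cells can pass between both programs after injury and in tumors.

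The low wells numbered 6, 10, 28 and 29 on FibCtrl replicates 1 to 4 and 16, 17, 42 and 33 on FibΔZeb1 replicates 1 to 4, and they held 247436 to 1262260 transcripts per plate. FibCtrl replicate 1 was left out of the comparisons because the collagen limit left 9 of its 52 wells and only 6 were low, so 3 FibCtrl and 4 FibΔZeb1 plates were compared. On FibΔZeb1 replicate 2 the limit on mature colon genes removed 42 of 68 wells (61.8%), and 12 wells on the other 7 plates together. The median depth was 25953 transcripts per low well and 23680 per high well, with the low median above the high one on 6 of 8 plates, and mitochondrial transcripts took 11.9% to 17.4% of the low wells and 7.54% to 14.98% of the high wells. Replicates 1 and 2 of both genotypes carried 1 run identifier in their deposited names and replicates 3 and 4 another. The labels give no run or flow cell, so what else differed between these runs is not known. Xist separated the low wells of the runs as described further on. Every plate used the same 384 well positions, so a position shared between plates is not a shared cell.

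The gate genes themselves were present on every plate. All 10 epithelial genes listed for the check were found in the low wells, with a summed level of 4593 to 7746 CPM (transcripts per 1000000) per plate. Leukocyte genes summed to 11.9 to 68.7 CPM and endothelial genes to 16.3 to 73.2 CPM, with Pecam1, Kdr and Plvap at 0. Fibroblast genes summed to 444 to 2550 CPM, highest on FibCtrl replicate 1 (2550) and FibΔZeb1 replicate 1 (1958), and high wells held a similar range of 486 to 3029. The rule required Epcam, Krt8, Krt18, Krt19 and Cldn7 and limited Ptprc, Col1a1, Col1a2, Col3a1, Guca2a and Lypd8. These genes belong to the epithelial, leukocyte, fibroblast and mature colonocyte lists, so the sums of those lists are partly fixed by the choice of wells. Neutrophil genes reached 469.5 CPM on FibCtrl replicate 2 and at most 74.1 elsewhere, and mature colonocyte genes reached 707 CPM on FibΔZeb1 replicate 2 and 502 on FibCtrl replicate 2 against at most 225 on the other 6 plates. The part of these transcripts in the results was not tested. Zeb1 itself had 0 to 4 transcripts per plate in the low wells. In wells rich in collagen transcripts, at least 100 per 10000, Zeb1 stood at 86.2, 0, 26.5 and 84.0 CPM on the plates of FibCtrl, and 44.8, 27.0, 44.4 and 22.4 on those of FibΔZeb1. The 0 rests on 3 such wells, against 15 to 55 on the other FibCtrl plates and 7 to 29 on the FibΔZeb1 plates, and the groups also overlapped without it. The study reported loss of Zeb1 in the colon of both its Cre lines from genomic and protein data. It also reported a difference in stromal ZEB1 staining between the genotypes in orthotopic tumors. RNA counts of 3′ ends measure neither the protein nor the deletion itself.

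**Figure D1:**
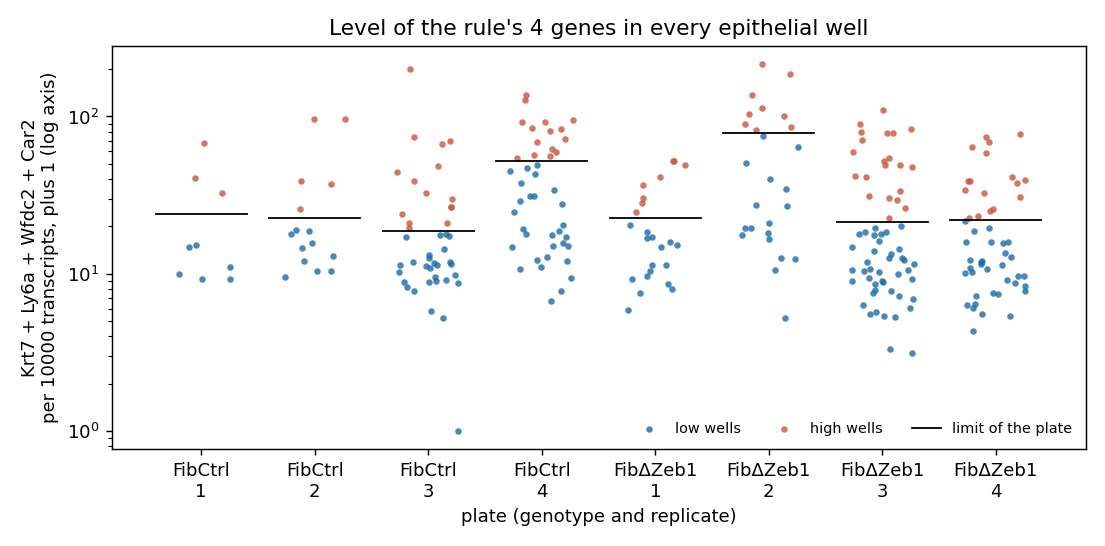
Summed Krt7, Ly6a, Wfdc2 and Car2 transcripts per 10000, plus 1, on a log axis for each of the 274 epithelial wells by plate, with low wells in blue, high wells in red and a line between the last low and first high well of each plate. The limit is highest on FibΔZeb1 replicate 2, between 74.1 and 81.1 per 10000, and on FibCtrl replicate 4, between 48.4 and 53.3.

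The level of the 4 genes at which low wells end differed between plates, since a fixed share of each plate was taken. The last well inside and the first outside stood at 14.3 and 31.7 per 10000 on FibCtrl replicate 1, 17.9 and 24.9 on replicate 2, 16.8 and 18.5 on replicate 3 and 48.4 and 53.3 on replicate 4. On FibΔZeb1 replicates 1 to 4 they stood at 19.5 and 23.5, 74.1 and 81.1, 19.2 and 21.5, and 20.8 and 21.4. The low wells are therefore not free of these genes. Ly6a, a surface antigen of regenerating epithelium and of some stem cells, stood at 522, 486, 221 and 933 CPM in FibCtrl low wells and 336, 1314, 161 and 196 in FibΔZeb1 low wells, highest on FibΔZeb1 replicate 2. Krt7, a keratin of ductal epithelium that normal colon mostly lacks, ranged from 194 to 902 CPM, the secreted protein gene Wfdc2 from 39.5 to 628, and Car2, a carbonic anhydrase, from 193 to 608. Low wells stood below high wells on all 7 plates for these genes, with median log2 differences of -2.84 for Ly6a, -2.05 for Wfdc2, -1.44 for Krt7 and -1.12 for Car2. The rule fixes this direction for their summed share, and so favors it for each gene. The median of the 4-gene level over all epithelial wells of a plate, which the fixed share does not set, averaged 18.1 ± 8.36 per 10000 in FibCtrl and 19.2 ± 11.5 in FibΔZeb1 (SD, n = 4 each). The two-sided exact permutation test gave p = 0.8286, where the smallest p of 70 arrangements is 0.0286, and the difference was 10.6 within run 1 and -8.32 within run 2.

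The 5 genes given as marks of the low wells were present but uneven between plates. Smoc2 (chr17:14279506-14404790, plus strand, GRCm38), a secreted matricellular protein of crypt-base cells, stood at 230, 284, 724 and 655 CPM on the plates of FibCtrl, and 170, 493, 558 and 331 on those of FibΔZeb1, and in the high wells at 166, 65.7, 560 and 271 and at 79.3, 179, 132 and 368. Low wells exceeded high wells on 6 of the 7 compared plates, all but FibΔZeb1 replicate 4, with a median log2 difference of 1.27 (SD over plates 0.81). Wif1 (chr10:121033960-121100650, plus strand), a secreted inhibitor that binds Wnt ligands, stood at 450, 247, 862 and 392 CPM and at 513, 251, 290 and 303, against 117, 29.2, 541 and 10.6 and 551, 0, 42.7 and 148 in high wells. Its median log2 difference was 2.70 (SD 2.18), with low wells higher on 6 of 7 plates and FibΔZeb1 replicate 1 the exception.

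Ptn (chr6:36714929-36810220, minus strand), a secreted heparin-binding growth factor, stood at 197, 475, 461 and 429 CPM on the plates of FibCtrl, and 289, 202, 568 and 490 on those of FibΔZeb1. The high wells of every plate lay below the low wells of that plate, between 12.8 and 302 CPM, and the median log2 difference was 1.55 (SD 1.13). T (chr17:8434423-8442496, plus strand), the Brachyury transcription factor of the primitive streak and a Wnt target there, stood at 480, 312, 264 and 255 CPM and at 305, 95.01, 154 and 184, and again low wells exceeded high wells on all plates (median log2 difference 1.84, SD 1.501). FibΔZeb1 replicate 2 was the lowest plate for T.

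Tgm3 (chr2:130012349-130050399, plus strand), a transglutaminase of cornifying epithelium, was the least even of the 5. It stood at 31.2, 0, 6152 and 1243 CPM in FibCtrl low wells and 4.65, 774, 2809 and 161 in FibΔZeb1 low wells, so it was near 0 on 3 of the 4 plates of run 1 and highest on replicate 3 of either genotype. Low wells exceeded high wells on 5 of 7 plates (median log2 difference 2.49, SD 2.71). The 18 wells with the most Tgm3 held 65.6% of its summed CPM over low wells, with a median of 57.6 CPM per well and a maximum of 21694. The share in the top 18 wells was 43.3% for T, 35.2% for Wif1, 30.2% for Smoc2 and 28.0% for Ptn. These shares are pooled over plates, so they mix differences between plates, which were widest for Tgm3, with differences between wells.

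**Figure D2:**
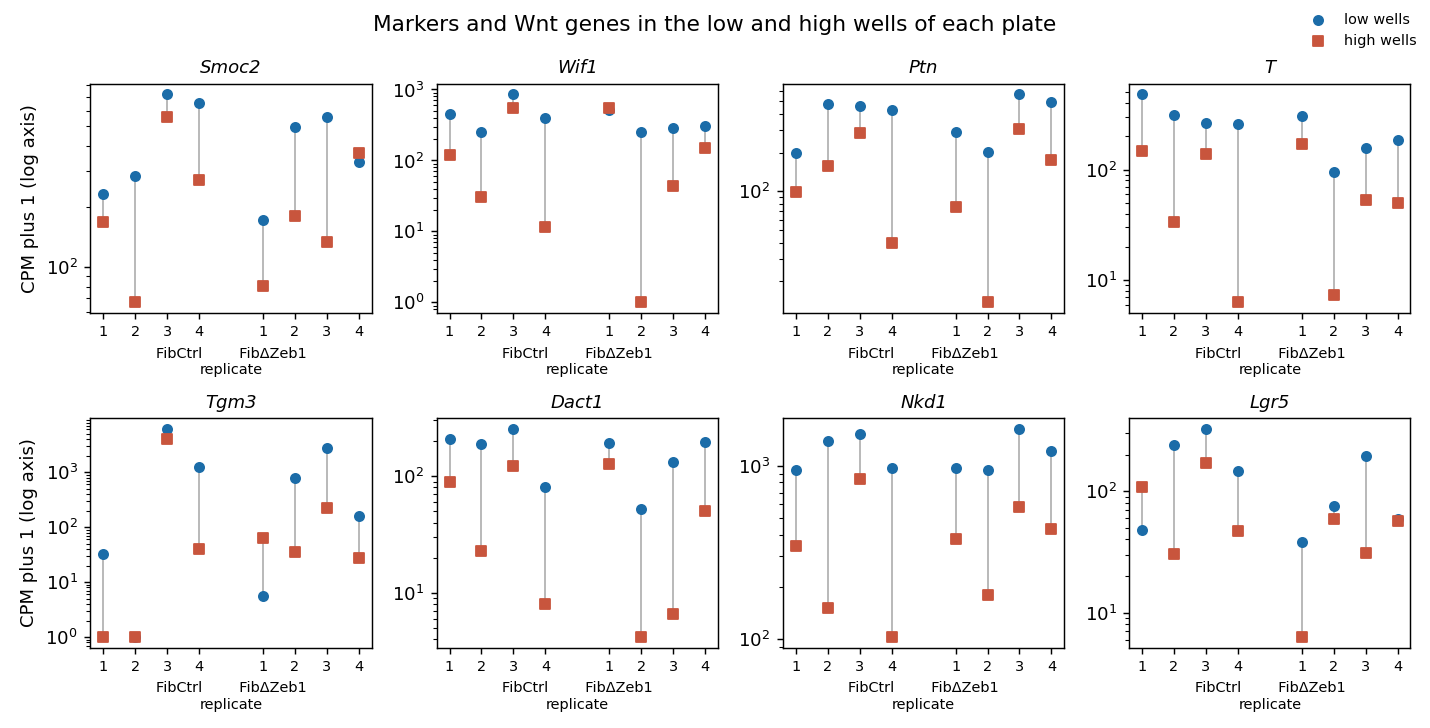
CPM plus 1 on a log axis in the low wells (blue circles) and high wells (red squares) of each plate for the 5 markers and for Dact1, Nkd1 and Lgr5, with a line joining the wells of 1 plate. Low wells lie above high wells on all 8 plates for Ptn, T, Dact1 and Nkd1, and on 1 plate of FibΔZeb1 or more the order is turned for Smoc2, Wif1 and Tgm3.

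To compare wells of unequal depth, each was thinned at random to 2000 transcripts. Ptn was then found in 55.8% of low wells (92.8% before thinning) and 25.8% of high wells, Smoc2 in 47.0% (84.0%) and 29.0%, Wif1 in 40.3% (72.9%) and 12.9%, Tgm3 in 36.5% (66.9%) and 21.5%, and T in 29.8% (66.3%) and 9.68%. In 342 wells with the leukocyte gene Ptprc, which should lack these genes and had a median of 3962 transcripts, the shares were 1.46%, 5.26%, 2.05%, 18.4% and 4.39%. Pooled over plates, the low wells lay above this background for all 5 markers, but the thinned low wells of FibCtrl replicate 2 and FibΔZeb1 replicate 1 held 0 transcripts of Tgm3 and lay below it. Of the 181 low wells, 25 (13.8%) showed 0 of the 5 markers after thinning, 37 showed 1, 48 showed 2, 44 showed 3, 21 showed 4 and 6 (3.31%) showed all 5. At least 2 markers were seen in 119 low wells (65.7%) and in 26 of 93 high wells (28.0%). The share of low wells with at least 2 markers was 66.7%, 50.0%, 96.4% and 69.0% on the plates of FibCtrl, and 75.0%, 35.3%, 71.4% and 45.5% on those of FibΔZeb1. The data thus show the markers in most but not all low wells, with FibCtrl replicate 3 the fullest and FibΔZeb1 replicate 2 the poorest plate.

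Of the measured genes on the Wnt and stem list, most had a positive median in low over high wells. A gene was counted where its log2 difference had the same sign on all 7 plates and a median of at least 1, which held for 109 of 7110 genes in the higher direction (1.53%) and 59 in the lower (0.83%). Of the 30 genes on a list of Wnt targets and crypt stem genes, 23 passed the expression filter. Of these, 4 were counted higher (Lgr5, Nkd1, Lef1 and Znrf3) and 0 lower. A positive median was seen for 16 of the 23, and for 3779 of all 7110 genes compared. The median of the 23 was 0.40, against 0.03 over all genes compared. The rule chose the classes from these wells, so these counts are a description of them. Summed over the list, the low wells held 4528 to 5580 CPM per plate and the high wells 3403 to 4358, without overlap. Nkd1, at 944 to 1633 CPM in low wells and less in all high wells, took a large part of this difference. Without it the ranges overlap, though the low sum of each plate stays above its high sum.

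Nkd1 (chr8:88521354-88594884, plus strand), an inhibitor of Dishevelled, stood at 944, 1393, 1515 and 964 CPM in FibCtrl low wells and 966, 947, 1633 and 1213 in FibΔZeb1 low wells, against 343, 150, 838 and 101 and 376, 179, 573 and 428 in high wells. Every low value lay above every high value, and the median log2 difference was 1.505 (SD 0.93). Notum, an enzyme that inactivates Wnt ligands, stood at 381, 377, 517 and 320 CPM and at 349, 273, 410 and 334, with a median log2 difference of 0.93. Axin2, the scaffold of the β-catenin destruction complex, stood at 545, 291, 358 and 254 CPM and at 436, 196, 293 and 384, with a median of 0.92. Both were higher in low wells on 7 of 7 plates but stayed under the limit of 1. Rnf43 and Znrf3, ubiquitin ligases that remove Frizzled receptors, ranged from 167 to 219 and from 84.8 to 141 CPM in low wells, with medians of 0.93 and 1.02.

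Lgr5 (chr10:115450311-115587780, minus strand), the R-spondin receptor of crypt stem cells, stood at 46.8, 239, 325 and 146 CPM in FibCtrl low wells and 37.2, 75.1, 194 and 58.3 in FibΔZeb1 low wells. It was higher than in high wells on all 7 compared plates (median log2 difference 1.61, SD 1.05), whereas on FibCtrl replicate 1, which was not compared, high wells held 108 CPM. Lef1, a partner of β-catenin, ranged from 29.7 to 107 CPM with a median of 1.19. The other crypt genes did not follow one pattern. Tnfrsf19, a receptor of crypt-base cells, had a median of 0.79 and was higher on 6 of 7 plates, Wnt10a 1.13 on 6 of 7, Lrig1 0.65, Cdca7 0.45, Sox9 0.40, Tcf7 0.26, Bambi 0.20, Ephb3 0.16 and Mex3a 0.10. Ephb2 (-0.02), Myc (-0.04), Wnt6 (-0.07), Ccnd1 (-0.21), Dkk2 (-0.38) and Slc12a2 (-0.70) stood near or under 0. Cd44, an adhesion receptor and Wnt target, had a median of -0.97 and was lower in low wells on all 7 plates, at 143 to 502 CPM.

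Several classical stem cell genes were scarce. Olfm4 had 0 transcripts in all low wells and also in all high wells. In low wells Ascl2, a transcription factor of Lgr5-positive cells, stood at 0 to 29.8 CPM, Sp5 at 0 to 35.6, Prox1 at 0 to 54.7, Apcdd1 at 3.95 to 30.2, Wnt11 at 0 to 7.90 and Dkk3 at 0 to 3.95. These 7 genes did not pass the filter. After thinning, Lgr5 was found in 19.3% of low wells (62.4% before thinning), 8.60% of high wells and 2.05% of immune wells. Ascl2 was found in 3.31%, 0% and 0.877%, where 0 of 93 high wells allows a share of up to 3.23%. Nkd1 was the most widespread, in 75.7% of low, 40.9% of high and 17.0% of immune wells, followed by Notum (50.8%, 29.0% and 10.2%) and Axin2 (44.2%, 22.6% and 5.26%). The top 18 wells held 48.6% of the summed Lgr5 CPM but 22.7% of that of Nkd1 and 27.1% of that of Axin2. These shares are pooled over plates and are not matched for abundance, and Lgr5 is the scarcest of the 3.

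**Figure D3:**
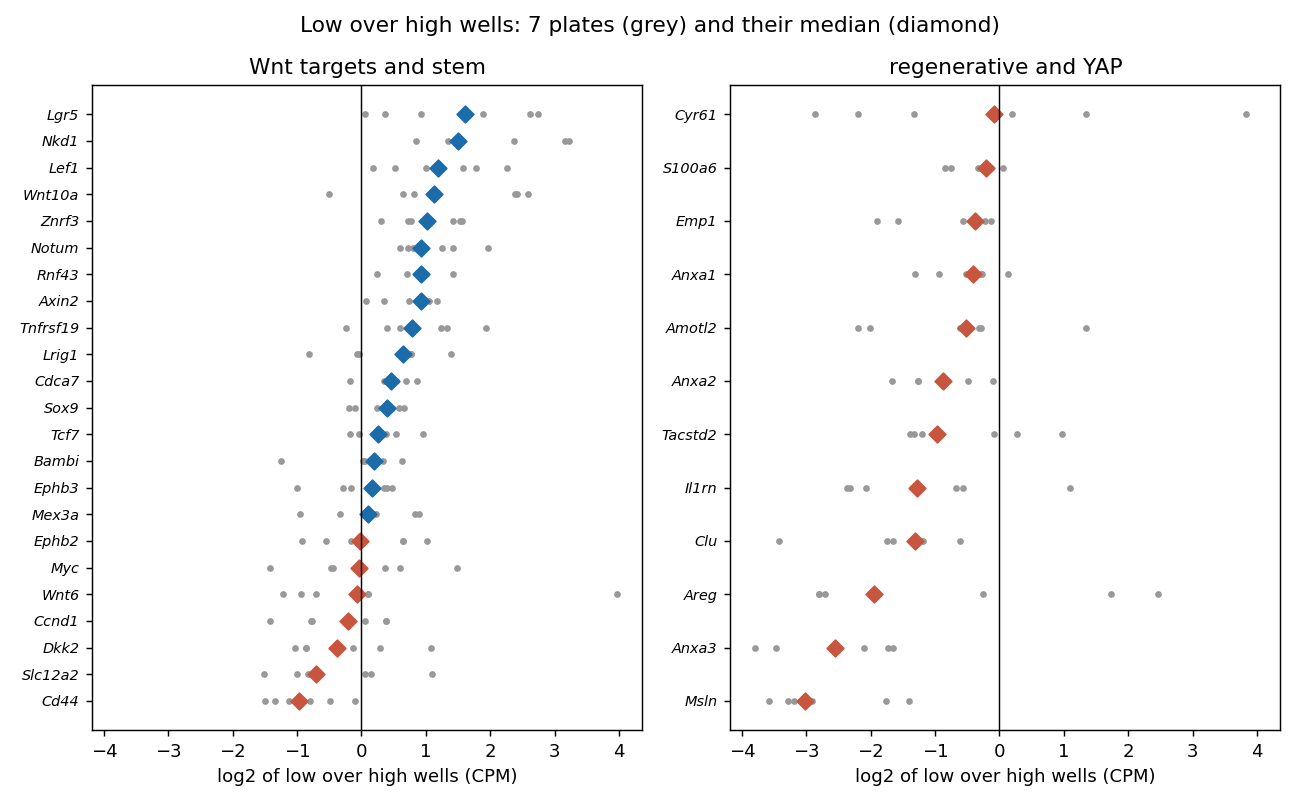
Log2 of the CPM in low over high wells for the measured genes of the Wnt and stem list (left) and of the regenerative and YAP list (right), with a grey point for each of 7 plates and a diamond for their median. Of the Wnt and stem genes 16 of 23 have a median above 0, and of the regenerative genes 0 of 12, against 3779 of all 7110 genes compared.

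Genes of the regenerative, YAP-linked program stood on the other side. Of 16 listed, 12 were measured, 0 had a positive median, 3 were counted lower and 0 higher, and the median was -0.92. The rule used Ly6a, which belongs to the same program, so this direction is not independent of the choice of wells. Anxa3, an annexin, stood at 33.5, 40.4, 15.8 and 180 CPM in FibCtrl low wells and 51.2, 150, 44.4 and 52.8 in FibΔZeb1 low wells, against 97.7 to 601 in high wells (median log2 difference -2.55). Msln, mesothelin, had a median of -3.02 and Clu, the clusterin gene of revival stem cells, -1.32. The more abundant members S100a6 (-0.21), Anxa1 (-0.41) and Emp1 (-0.38) differed less. The summed level ranged from 4937 to 9422 CPM in low wells and from 6622 to 15360 in high wells, so the ranges overlapped.

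Beside the 5 markers and the Wnt list, the genes described next had the largest medians in favor of the low wells among those with 1 sign on all 7 plates and a median over plates of at least 50 CPM in the higher class, leaving out ribosomal protein, mitochondrial, Gm and Rik symbols. Slc30a2, a zinc transporter, stood at 80.3, 97.1, 124 and 52.9 CPM in FibCtrl low wells and 123, 15.8, 90.5 and 77.8 in FibΔZeb1 low wells, against 0 to 58.6 in high wells (median log2 difference 3.47). Dact1 (chr12:71309884-71320107, plus strand), which binds Dishevelled and modulates Wnt signaling, stood at 208, 186, 253 and 80.0 CPM and at 193, 51.5, 130 and 196, above the high wells of the same plate on all plates (median 2.71). Both had their lowest level on FibΔZeb1 replicate 2. Pla2g2a, a secreted phospholipase, was by far the most abundant of them, at 1264, 23205, 13226 and 13063 CPM and at 4520, 6394, 16829 and 9642, with a median of 2.37. It is annotated as a polymorphic pseudogene, since some mouse strains carry a broken copy, and 75.4% of immune wells held a transcript of it after thinning against 94.5% of low wells.

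Hdc, the enzyme that makes histamine, had a median of 2.15 with 11.5 to 1574 CPM. Its thinned share was 15.5% of low wells, 3.23% of high wells and 17.3% of immune wells. Hdc was highest on FibCtrl replicate 2 (1574 CPM, neutrophil genes 469.5) and next on FibΔZeb1 replicate 1 (683 CPM, neutrophil genes 34.9). The part of immune transcripts in Hdc was not tested. Frem1, a basement membrane protein, had a median of 2.20, the retinol dehydrogenase Rdh9 2.04, Tex15 2.02, the Polycomb subunit Pcgf1 2.01, the glutathione transferase Gstm7 1.95, the endosomal GTPase Rab4a 1.93, the carboxypeptidase-like Cpxm2 1.91, the mitochondrial folate carrier Slc25a32 1.85, the collagen Col16a1 1.84 and the heparan sulfate sulfotransferase Hs3st3b1 1.84. These lay between 6.69 and 301 CPM in low wells. With every well thinned to 2000 transcripts many of these differences shrank toward 0, to 1.10 for Slc30a2 and Dact1, 0.46 for Frem1, 0.30 for Rdh9 and 0.00 for Slc25a32. In all, 35 genes met the limit in place of 168, and 23 of the 35 were among the 168. Pla2g2a (1.68) and, among the markers, Tgm3 (2.54), Wif1 (1.37) and T (1.34) stayed above 1, whereas Ptn (0.92) and Smoc2 (0.85) did not. Thinned classes held far fewer transcripts, and with an added count of 2 this alone draws ratios of scarce genes toward 0. Its part in the shrinkage was not tested.

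The lowest medians under the same limits included those of the rule genes Ly6a and Wfdc2 and of Msln and Anxa3, given before. Ly6c1, a relative of Ly6a in the same multigene family, whose members can share reads, stood at 22.3, 32.4, 5.93 and 84.7 CPM in FibCtrl low wells and 16.3, 101, 15.1 and 4.63 in FibΔZeb1 low wells, against 138 to 600 in high wells (median log2 difference -3.55). Myof, a membrane repair protein, had a median of -3.03, Col18a1, a basement membrane collagen, -2.31, Anxa8 -2.25 and the laminin chain Lama3 -2.14. Wnt7b, a Wnt ligand, stood at 4.46, 12.1, 4.94 and 14.4 CPM and at 6.97, 97.0, 19.0 and 10.2, with a median of -2.01, a sign opposite to that of most measured target genes of the pathway. FibΔZeb1 replicate 2 was the highest plate for Ly6c1, Myof, Col18a1, Anxa8, Lama3 and Wnt7b, as it was for the rule's own level.

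Genes of the TGF-β and BMP response showed a mild tilt to low wells, with 3 of 12 measured counted higher, 0 lower and a median of 0.57. The 3 were the ligand Bmp7 (1.82), the ligand Tgfb2 (1.77) and the inhibitory Smad6 (1.002), and Smad7 was higher on 7 of 7 plates with a median of 0.48. Cell cycle genes lay lower, with a median of -0.54 over 22 measured genes, 3 with a positive median and 1 counted (the replication helicase subunit Mcm6, -1.36). Pcna, the replication clamp, ranged from 150 to 381 CPM in low wells and was lower than in high wells on all 7 plates. After thinning, Mki67 was found in 14.4% of low and 21.5% of high wells and Top2a in 9.94% and 15.1%, with 10.5% and 7.89% of immune wells.

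Other programs differed little between low and high wells. Among early response and MAPK feedback genes 1 of 16 was counted, Etv5 (1.33), a target of receptor tyrosine kinase signaling, and the median was 0.26, with Fos at 798 to 2637 CPM and Atf3 at 898 to 2716. Of 10 measured interferon genes 0 were counted (median 0.25) and of 16 glycolysis and hypoxia genes 0 (-0.10), although Bnip3 was higher on 7 of 7 plates (0.98). Of 10 NF-kB and chemokine genes 1 was counted lower, Cxcl16 (-1.60), with a median of -0.07. Of 7 genes of epithelial-mesenchymal transition 1 was counted lower, Fn1 (-1.24), and the median was 0.26. Vim, an intermediate filament of mesenchymal cells, stood at 777 to 1941 CPM in low wells and was higher than in high wells on 6 of 7 plates (median 1.24), and the transcription factor Twist1 stood at 149 to 1226 CPM (0.26). Fibroblast genes had a median of -0.12 over 6 measured, with 0 counted.

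Markers of differentiated lineages were followed in the low wells, bearing in mind that the choice of wells removed those rich in the mature colon genes Guca2a and Lypd8, which fixes low levels of such genes. Of 14 mature absorptive genes 3 were measured, and Vil1, the microvillus protein villin, was counted higher (1.04, 174 to 328 CPM), whereas Krt20 stood at 0 to 35.6 CPM and Ceacam20 at 0. Muc2, the goblet mucin, ranged from 0 to 317 CPM, highest on FibCtrl replicate 3, with a median log2 difference of 1.59 and higher in low wells on 5 of 7 plates. It was found in 32.6% of low wells (9.94% after thinning), against 25.8% (5.38%) of high wells and 3.80% of thinned immune wells, and Tff3 stood at 150 CPM on FibCtrl replicate 2, 7.91 on FibΔZeb1 replicate 2 and 0 on the other 6 plates. The secretory regulator Atoh1 was at 0. Enteroendocrine Chga, Neurod1, Neurog3, Pyy and Gcg and the tuft cell factor Pou2f3 had 0 transcripts in all low wells, while Avil, which tuft cells express, reached 91.2 CPM on FibΔZeb1 replicate 2.

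Within a plate the low wells varied most in genes outside the Wnt list. By excess of variance over counting error in thinned wells, averaged as a median over plates, the first 10 of 1888 genes were Bpifb1, Tmcc3, Ndrg1, Lars2, Abca1, Top2a, Fam46a, Tgm3, Trib1 and Lgals1. Bpifb1, a secreted defense protein of mucosae, was found in 16.0% of 175 thinned low wells and averaged 1.65 transcripts per well on FibΔZeb1 replicate 2 against 0 to 0.976 elsewhere. Ndrg1, a gene induced by stress and hypoxia, was found in 24.6%, and the mitochondrial leucyl-tRNA synthetase gene Lars2 in 33.7%. The cycling gene Top2a was found in 9.71% and Tgm3 in 37.7%.

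Matches to the sequence bound by TCF and LEF factors, the DNA partners of β-catenin, were searched in promoters, since a Wnt target list was followed here. RefSeq windows on GRCm38.p6 from 250 bases before to 50 after the gene start were searched on both strands for CTTTGAT, or ATCAAAG on the opposite strand, and 3.73% of all 32851 windows held it. Windows were matched to genes by symbol, and a gene was counted where any of its windows held the motif. Of the 109 genes higher in low wells 78 had a window, and 6 (7.69%) held the motif, namely C630043F03Rik, Dach1, Hdc, Rbms3, Tiam1 and Wnt5b. Of 40 genes lower in low wells with a window 0 held it, of 5435 compared genes 167 (3.07%), and of all 27025 genes 1160 (4.29%). Of 19 genes on the Wnt and stem list 3 held it (15.8%, Sp5, Tnfrsf19 and Wnt11), and of 4 of the 5 markers 0. A match is a run of letters and not a bound site. Windows of a higher Wnt ligand gene, a higher transcription factor gene and a Wnt list member are printed 5′ to 3′ in gene direction with the motif in capitals. Wnt5b lies at chr6:119449337-119449636 on the minus strand with a median log2 difference of 1.10, Dach1 at chr14:98169716-98170015 on the minus strand with 1.51, and Tnfrsf19 at chr14:61037938-61038237 on the minus strand with 0.79. The motif begins 71 bases before the start in Wnt5b, after it in Dach1, and 202 bases before it and on the opposite strand in Tnfrsf19.
Wnt5b: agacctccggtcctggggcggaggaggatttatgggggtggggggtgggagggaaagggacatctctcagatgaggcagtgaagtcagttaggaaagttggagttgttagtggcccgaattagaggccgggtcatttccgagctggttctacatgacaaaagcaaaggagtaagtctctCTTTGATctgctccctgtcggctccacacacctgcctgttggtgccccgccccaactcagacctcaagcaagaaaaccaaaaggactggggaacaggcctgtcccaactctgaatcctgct
Dach1: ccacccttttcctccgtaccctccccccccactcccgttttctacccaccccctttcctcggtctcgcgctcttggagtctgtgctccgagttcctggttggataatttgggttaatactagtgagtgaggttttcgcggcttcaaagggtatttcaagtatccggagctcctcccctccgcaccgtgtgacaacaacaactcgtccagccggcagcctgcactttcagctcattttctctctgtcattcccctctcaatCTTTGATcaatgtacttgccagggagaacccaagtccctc
Tnfrsf19: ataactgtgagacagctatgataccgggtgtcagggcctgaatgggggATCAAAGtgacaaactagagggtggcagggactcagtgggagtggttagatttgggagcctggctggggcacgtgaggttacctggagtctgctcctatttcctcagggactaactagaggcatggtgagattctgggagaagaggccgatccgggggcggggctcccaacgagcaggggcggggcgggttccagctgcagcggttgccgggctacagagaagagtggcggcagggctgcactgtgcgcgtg
For comparison, CATTCC or GGAATG, the core read by TEAD factors, was counted per gene in the same way. It was held by 16.6% of all genes, 14% of compared genes, 21.8% of genes higher and 25.0% of genes lower in low wells. The AP-1 letters TGAGTCA or TGACTCA were held by 5.95%, 4.31%, 5.13% and 5% of the same groups.

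Whether the low wells differed with Zeb1 in the host's fibroblasts was tested over plates, a contrast that the rule did not use. The quasi-likelihood test of edgeR with Benjamini-Hochberg adjustment called 0 of 9728 genes (0%), 198 had an unadjusted p under 0.05 (2.04%), 84 higher and 114 lower in FibΔZeb1, and DESeq2 called 0 with 150 unadjusted. The genes with the lowest p therefore stand as candidates only, each with an edgeR adjusted p of 0.999965. Cflar, an inhibitor of caspase-8, stood at 56.6, 122 and 86.6 CPM on FibCtrl replicates 2 to 4 and at 37.2, 47.4, 42.004 and 37.9 on FibΔZeb1 replicates 1 to 4. The groups did not overlap and the log2 fold change was -1.13 (SE 0.26), but FibCtrl replicate 1, with 6 wells and not in the fit, stood at 17.8, below all of them.

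Fbp2, a gluconeogenic fructose bisphosphatase, averaged 142 ± 55.6 normalised CPM over the 3 FibCtrl plates and 66.1 ± 0.994 over the 4 FibΔZeb1 plates (mean ± SD), a log2 fold change of -1.09 (SE 0.29). Leng8, Atrnl1 and Aldh1a7 were the other 3 of the lower side, at -0.85, -1.38 and -1.49. FibCtrl replicate 1, which was not in the fit, stood at 22.3 CPM for Leng8 and 0 for Aldh1a7, below all 4 FibΔZeb1 plates, and at 40.2 for Atrnl1, above them. Scd1, a fatty acid desaturase, averaged 13.8 ± 5.49 and 37.8 ± 8.11 (1.31, SE 0.38), and Zcchc10 16.8 ± 3.13 and 40.5 ± 9.32 (1.20, SE 0.35), in both cases with all 4 FibΔZeb1 plates above the 3 FibCtrl plates. H19, an imprinted noncoding RNA, averaged 7.35 ± 8.26 and 82.8 ± 76.9 (3.27, SE 0.87), Dclk1, a kinase of tuft cells, 1.27 ± 1.10 and 20.97 ± 15.6 (3.43, SE 0.92), and E030002O03Rik 2.47 ± 4.28 and 303 ± 427 (6.46, SE 1.82), where the spread was as large as the mean. FibCtrl replicate 1 stood at 20.1, 15.6 and 22.3 CPM for Scd1, Zcchc10 and H19, below all 4 FibΔZeb1 plates. It stood at 0 for E030002O03Rik, as did FibΔZeb1 replicate 1, and at 11.1 for Dclk1, above FibΔZeb1 replicate 4 (4.63). Dclk1 rests on 62.0 transcripts in the low wells of all plates.

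**Figure D4:**
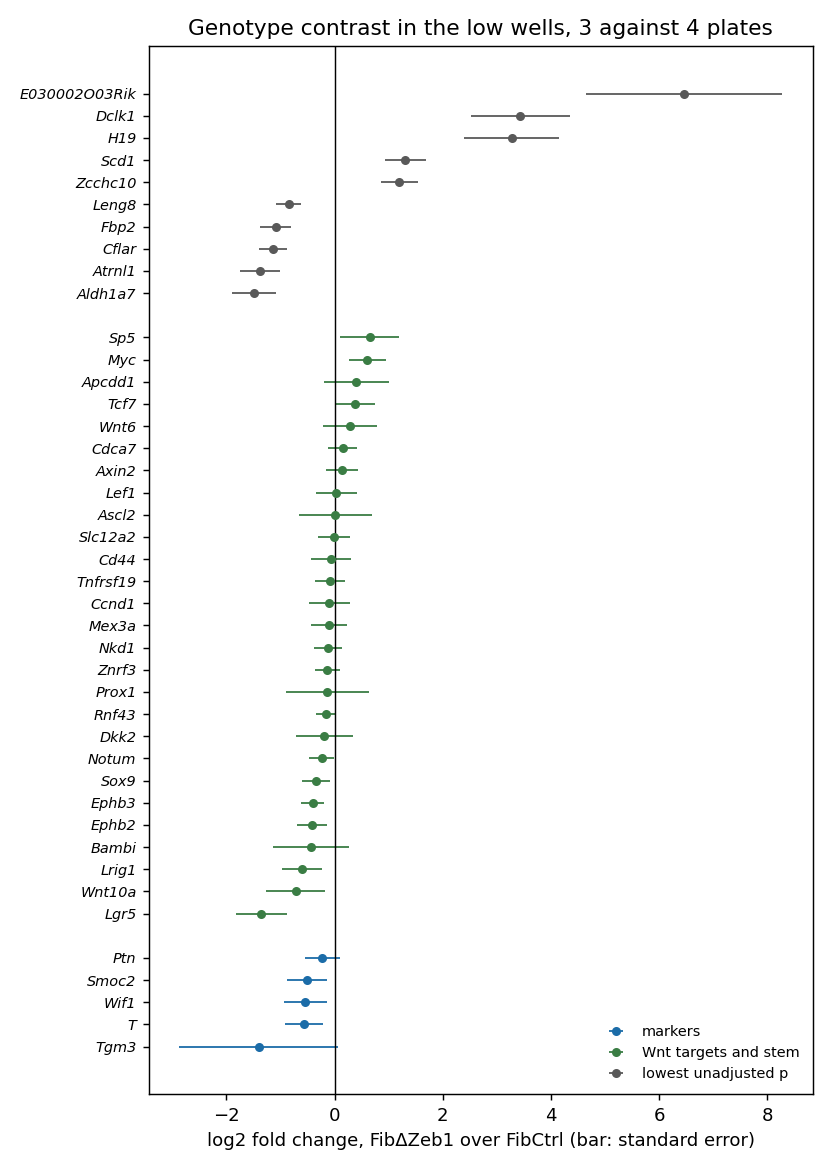
Log2 fold change of FibΔZeb1 over FibCtrl in the low wells (3 against 4 plates), with a standard error computed from edgeR's fold change and F statistic. The 5 markers are in blue, the tested genes of the Wnt and stem list in green, and the 5 genes per direction with the lowest unadjusted p in grey. No gene passed the adjusted threshold, and Lgr5 stands lowest among the Wnt and stem genes at -1.35.

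The markers and the Wnt genes did not pass either. Log2 fold changes were -0.52 (SE 0.37) for Smoc2, -0.54 (0.39) for Wif1, -0.22 (0.32) for Ptn, -0.57 (0.36) for T and -1.41 (1.46) for Tgm3, all toward FibCtrl. For Wif1 and Tgm3 the sign rested on FibCtrl replicate 3, without which they were 0.0939 and 0.58. Of 27 Wnt and stem genes tested, 0 were called, and the median was -0.10 against 0.01 over all genes. In edgeR, 198 of all 9728 genes (2.04%) had an unadjusted p under 0.05, among them 1 of the 27. That gene was Lgr5, with 241 ± 92.7 normalised CPM over the 3 FibCtrl plates and 91.0 ± 67.5 over the 4 FibΔZeb1 plates (mean ± SD), a log2 fold change of -1.35 (SE 0.47). In edgeR its p was 0.0151 before and 0.999965 after adjustment. The groups overlapped, since FibΔZeb1 replicate 3 exceeded FibCtrl replicate 4. Outside the fit, FibCtrl replicate 1 stood at 46.8 CPM, below FibΔZeb1 replicates 2 to 4 and above FibΔZeb1 replicate 1 (37.2). Nkd1 averaged 1318 ± 337 and 1206 ± 294, and Axin2 306 ± 56.9 and 336 ± 123. Cell cycle genes had a median of 0.39 over 24 tested, with 0 called.

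The difference in genotype effect between low and high wells of the same plates was tested as an interaction. Out of 8555 genes the quasi-likelihood test of edgeR passed 0 (0%), and 203 lay under 0.05 before adjustment. The lowest p-values belonged to Ckmt1, a mitochondrial creatine kinase (2.27 on the log2 scale, toward low wells of FibΔZeb1), Pigr, the receptor that carries immunoglobulin across epithelium (4.88), Fryl (-1.72) and Gpr133 (-1.61), each with an adjusted p of 0.999. Pigr alone passed when FibCtrl replicate 4 was left out (6.56, adjusted p 0.0295 with edgeR).

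Values per plate did not separate the genotypes by two-sided exact permutation tests over 3 against 4 plates, where the smallest p of 35 arrangements is 0.0571. After thinning, a low well showed 1258 ± 60.4 genes over 3 FibCtrl plates and 1256 ± 28.7 over 4 FibΔZeb1 plates (mean ± SD), exact permutation p = 1. Lgr5, Axin2 or Nkd1 was found in 70.0%, 89.3% and 79.3% of low wells on FibCtrl replicates 2 to 4 and in 87.5%, 76.5%, 95.2% and 84.8% on FibΔZeb1 replicates 1 to 4, exact permutation p = 0.4. At least 1 of the 5 markers was found in 70.0%, 100%, 82.8% and in 93.8%, 70.6%, 85.7%, 84.8%, exact permutation p = 1. Replicate 2 was the lowest plate of either genotype in both measures. Mki67 or Top2a was found in 19.5% ± 1.477 and 19.4% ± 6.34, exact permutation p = 1. How unlike the wells of a plate were, taken as 1 minus their mean pairwise correlation, was 0.592 ± 0.00495 and 0.571 ± 0.0474, exact permutation p = 0.457. Adjusted over the 6 values all p-values were 1.

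The low wells were also compared between the runs read from the deposited names, a comparison added after the Xist values were seen. Xist, the noncoding RNA of the inactive X chromosome, was found in 46 of 49 low wells of run 1 (93.9%) and in 15 of 132 of run 2 (11.4%). It stood at 340 and 580 CPM on FibCtrl replicates 1 and 2 and 536 and 434 on FibΔZeb1 replicates 1 and 2, against 4.94 and 91.8 on FibCtrl replicates 3 and 4 and 2.38 and 43.6 on FibΔZeb1 replicates 3 and 4. The runs did not overlap. Immune wells of the same plates, which come from the host, did not follow the run. Their Xist stood at 458, 75.6, 0 and 443 CPM on the plates of FibCtrl, and 5.83, 10.0, 331 and 365 on those of FibΔZeb1, and their summed Y-linked genes at 0, 416, 415 and 0 and at 289, 435, 0 and 0. In the low wells the Y-linked genes summed to 0, 12.1, 8.89 and 0.961 CPM on FibCtrl replicates 1 to 4 and to 23.2, 15.8, 0 and 0 on FibΔZeb1 replicates 1 to 4, at most 10 transcripts per plate, so the low wells of run 2 were low in both Xist and Y-linked transcripts.

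**Figure D5:**
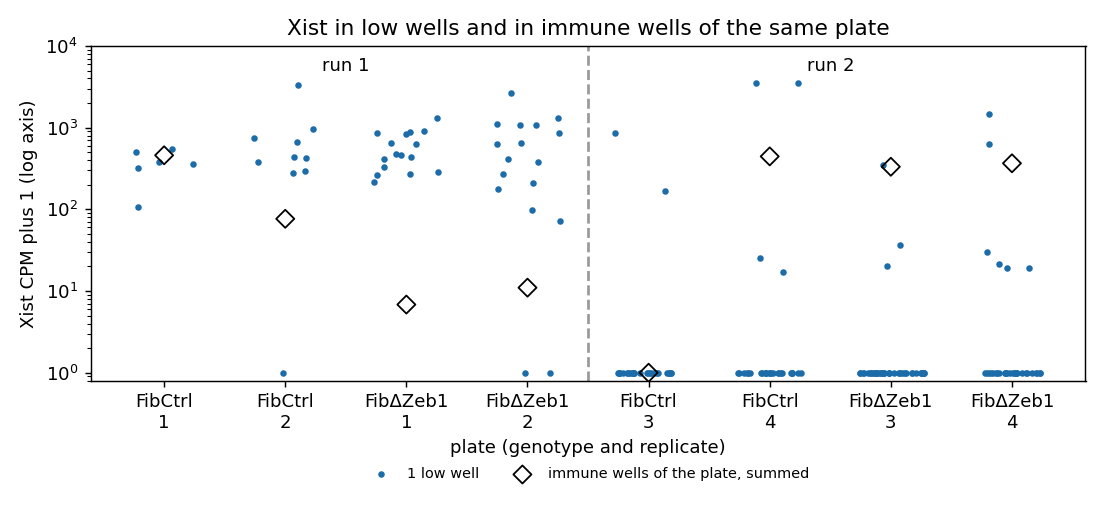
Xist CPM plus 1 on a log axis in each low well (blue points) and in the summed immune wells of the plate (open diamonds), with the plates of run 1 left and those of run 2 right of the dashed line. Nearly all low wells of run 1 hold Xist and 15 of 132 of run 2 do, whereas the immune wells vary within both runs.

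In run 2, 4 low wells held at least 10 Xist transcripts, 2 on FibCtrl replicate 4 (46.3 and 47.3) and 2 on FibΔZeb1 replicate 4 (16.0 and 26.1), and all 4 also held transcripts of T, Wif1, Smoc2 and Ptn. Leaving these wells out gave 0 genes called between genotypes and 171 genes counted between low and high wells. Between runs, with genotype as a term, edgeR passed 0 of the 9728 genes (0%), 789 lay under 0.05 before adjustment, and DESeq2 called 42. The lowest p belonged to Spp1, osteopontin, with a log2 difference of -3.59 in run 2 (SE 0.50, edgeR adjusted p 0.164). F2rl1, a protease-activated receptor, stood at -1.46, Cxcl2, a neutrophil chemokine, at -2.003 and Tmsb4x, an actin-binding peptide, at -1.33, while the metallothioneins Mt1 (1.57) and Mt2 (2.56) stood higher in run 2. Xist had a difference of -4.15 (edgeR adjusted p 0.193). Both genotypes were present in both runs, so run and genotype can be told apart, but the run and the Xist state of the tumor cells cannot be told apart.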

How the data were processed

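Single-cell RNA sequencing by SORT-seq (CEL-Seq2 chemistry) was analysed from 8 plates, 1 per mouse. Per the methods of the study and the labels, reads were aligned with BWA to GRCm38, and the labels also name Cell Ranger 2.1.1. The deposited values are estimated counts, namely UMI counts per gene and well that the authors corrected for UMI collisions and did not scale to depth. Of nonzero values 87.1% were whole. Plate totals ran from 1759510 to 7079530 transcripts. UMIs remove PCR copies, and intervals and floors cover counting error only. Spike-ins (9.15% of transcripts) and mitochondrial genes (13.4% of the rest) were left out, and the ribosomal gene Rn45s took 2.29% of the low wells. The gate through which each cell was sorted was not used.

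Wells were chosen as the opening of the report states, doublets were not called, since 1 cell was sorted into each well, and counts were summed per plate and class, rounded and used where a plate had at least 10 low and 5 high wells. Low and high wells were compared as log2 ratios of CPM with an added count of 2 over genes passing edgeR's expression filter. CPM is per 1000000 transcripts of the class on the plate. Counts are of 3′ ends and carry no length scaling, and whether counting used strand is not given in the sources used here. Normalised CPM, given as means ± SD, also uses TMM factors.

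Genotype, interaction (plate as block) and run were tested with edgeR's quasi-likelihood method (4.0.16, TMM, R 4.3.3, limma 3.58.1) with Benjamini-Hochberg adjustment at 0.05, and with DESeq2 1.42.0 as an alternative, after checks on simulated data. Standard errors (SE) were computed as the absolute log2 fold change divided by the square root of the edgeR F statistic. The study compared cells with Welch tests, which treat cells as replicates and were not repeated. Values per plate were compared by two-sided exact permutation tests (scipy 1.17.1, numpy 2.4.6, pandas 2.3.3, Python 3.11.15). Replicates were separate mice, which within each genotype also differed by run and by the Xist state of the tumor cells. The main genotype tests had no run term, so their p-values measure the spread between mice and runs together. Well shares used a random draw of 2000 transcripts per well. Coordinates are from GENCODE vM21, promoters from RefSeq.

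Alternatives were the scaling, the filter, the share and depth of wells, thinning, a mitochondrial limit, run or replicate number as a term, and leaving out each plate. Named genes are the markers and rule genes, the 15 highest and 10 lowest between low and high wells with at least 50 CPM, the Wnt and stem list in full, up to 4 abundant genes of other lists, and the lowest p-values. List members that moved most were added after their values were seen, as were the genes named between runs. Some items, among them members of the gene lists and the further engineered changes of the organoids, are not reported here. The wells, gene lists and tests were chosen with earlier results of these data known. Replicate numbers did not pair the plates, as same-numbered plates had correlations of -0.04, 0.09 and 0.06.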

Additional observations from a re-analysis of the deposited data

Results flagged for a closer look

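In groups of 4 plates, the gap of the most distant plate to its neighbor was compared with the range of the group, which picks out about 1 group in 20 by chance, and 18 of 129 groups were picked out. FibΔZeb1 replicate 2 was the distant plate for the 4-gene level of all epithelial wells (36.4 per 10000) and, in CPM of the low wells, for Ly6a (1314), Wfdc2 (628), Ly6c1 (101), Myof (87.1), Anxa3 (150.5), Col18a1 (200.5), Wnt7b (97.0) and Mex3a (101.0). On this plate the limit between low and high wells lay highest and the mature colon genes removed most wells. FibCtrl replicate 4, the plate with the next highest limit, was distant for Myof (65.5) and Anxa3 (180). FibCtrl replicate 3 and FibΔZeb1 replicate 3 stood apart upward for Pcgf1 (301 and 224), FibCtrl replicate 3 for Dkk3 (1.98) and FibΔZeb1 replicate 3 for Prox1 (54.7). FibCtrl replicate 1, with 6 low wells, was distant for Ptn (197) and Ephb2 (35.7) downward and for Myc (246) upward.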

How the results depend on the processing

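Between genotypes edgeR called 0 genes under every alternative but run 1 alone, where 1 FibCtrl plate, assumed to vary like the others, met 2 FibΔZeb1 plates and 5 genes were called lower (Gm11127, Hspa1a, Igfbp5, S100a8 and S100a9). That FibCtrl plate, replicate 2, has 10 low wells and neutrophil genes, among them S100a8 and S100a9, at 469.5 CPM against at most 74.1 on the other plates, and the part of these transcripts was not tested. With the replicate block 0 were called, 197 with an unadjusted p under 0.05. Run 1 alone turned the fold changes of Smoc2 (0.13), Wif1 (0.58) and Tgm3 (10.2), run 2 alone that of Ptn (0.28), and leaving out FibCtrl replicate 3 those of Wif1 (0.0939) and Tgm3 (0.584), whose ranges without single plates were -0.852 to 0.0939 and -2.97 to 0.584. The interaction gave 14 calls without a filter and 0 to 1 without single plates. Between runs, calls were 42 with DESeq2, 249 without a filter, 3 with plates of at least 5 low wells (Cpm, Csrnp1 and Spp1), 1 without the run 2 wells of at least 10 Xist transcripts (Xist, edgeR adjusted p 8.25e-06) and 0 to 20 without single plates, with 20 without FibΔZeb1 replicate 2 and 1 (Spp1) without FibCtrl replicate 3. The 168 genes counted between low and high wells became 35 with thinned wells, 23 of them among the 168. With each well given equal weight 144 were counted, 97 of them among the 168. The count was 420 when a narrower low class met the wells at the upper end. Without single plates it was 151 to 231, with 98 to 142 higher and 52 to 89 lower. The causes of these moves were not tested.

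Differences of plate values near 0 changed sign, with all exact permutation p-values at 0.267 or above. That in genes detected was 5.04 at 1000 and 1.33 at 5000 thinned transcripts, 7.67 with the replicate block, and -36.6 to 16.4 without single plates. That in wells with Mki67 or Top2a was 4.09 percentage points at 5000 transcripts, 2.17 in a narrower low class, 1.77 in wells of at least 5000 transcripts, and -1.96 to 2.45 without single plates. That in wells with Lgr5, Axin2 or Nkd1 was -0.537 in wells of at least 5000 transcripts. Without single plates the 4-gene level differed by -4.60 to 5.17 and the marker share by -7.65 to 7.35. Of the values of single genes recomputed under these settings, 884 stayed on their side of the threshold with the same sign or, where no test applied, moved by less than their spread over plates, 37 newly passed a threshold, 23 moved more and 6 changed sign. FibCtrl replicates 1 and 2, with 6 and 10 low wells, limit what can be seen between genotypes.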
